A study of Arabidopsis thaliana with 8 samples.

Results

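Expanding leaves of Arabidopsis thaliana were compared with the younger vegetative apex, the stage at which leaves 1 and 2 are only being initiated or are still very small. The material was wild-type ecotype Ler (Landsberg erecta) grown on soil with 10 h of light per day at 20 °C, with no transgene or treatment named for any group. The expanding leaf group holds leaves 1 and 2 collected 14 days after sowing. The younger apex group holds vegetative shoot tips whose sample titles give 5 days after sowing and whose source descriptions give 7. The older apex at 14 days and the mature leaf at 35 days complete the series of 8 ATH1 arrays, 2 per group, so that 4 of the 8 arrays carry the comparison. All 22746 non-control probe sets were members of it, and 17837 passed a filter on low values and were tested. The labels do not say whether the 2 arrays of a group came from separate plants, so p-values measure only the spread between these arrays, which may be technical.

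A vegetative shoot apex contains the meristem and the primordia it has just formed, whose cells divide and receive auxin made and moved within the tip. A leaf that expands leaves this state progressively. Its cells stop dividing, enlarge, build stomata in the epidermis and turn small proplastids into chloroplasts. The chloroplast needs nuclear genes for its ribosomes, RNA processing and protein folding as well as for the photosystems, and genes encoded in the plastid itself.

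Levels below are log2(intensity + pseudocount) after scaling, on which an intensity of 0 would lie at 2.95, and differences are expanding leaf minus younger apex on that scale. A difference was called at an adjusted p under 0.05 in limma's moderated test with Benjamini-Hochberg adjustment over all 17837 probe sets. The term stable is used for a call that also passed in each of 8 fits that left out 1 array, with arrays of the groups not overlapping. The arrays' number, 2 per group, limits the precision of every value.

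The replicate arrays agreed less in the younger apex than elsewhere. Their levels correlated at r = 0.924, against 0.956 for the expanding leaf, and 12.5% of probe sets differed more than 2-fold between them, against 6.64%. Replicate 1 of the younger apex stood apart. Its 25S rRNA control probe set read 193 in scaled intensity, while the other 7 arrays read 0.96 to 21.3, and its plastid-encoded transcripts were high, as described below. Other array control probe sets also separated the 2 younger apex arrays. On replicates 1 and 2, Bs-dap-3 read 1.41 and 108.2, against 24.3 to 71.2 in the other groups. Bs-thr-3 read 2.05 and 77.35. BioDn-3 went the other way, at 1231.6 and 326.7, and LysX-5 was alike, at 7.80 and 8.54. Tissue markers could be checked only in part, because many well-known genes have no name in the annotation used. Of the shoot meristem markers 3 were present, namely LAS, CLV3 and UFO, and CLV3 and UFO did not pass the filter. CLV3, the signal peptide of the stem cells, read 4.38 and 4.40 in the younger apex and 3.31 and 3.43 in the leaf, all close to the floor. LAS, a boundary regulator of axillary meristems, read 5.82 and 5.98 in the younger apex and 4.87 and 5.21 in the leaf, a difference of -0.86 that was not called (adjusted p = 0.18). The mesophyll markers RCA, which activates Rubisco, and LHCB4.2, a light-harvesting protein, read 11.78 to 12.79 on all 4 arrays and did not separate the groups. By these 2 markers the younger apex samples carried green tissue transcripts at about leaf level. The marker median was 12.59 and 11.90 on younger apex replicates 1 and 2, against 12.23 and 12.28 in the leaf. Replicate 2 thus lay below both leaf arrays. A lower level in a sample cannot be told apart from fewer cells of a type in it. The remaining cell type markers were TRY for trichomes, PAP85 for seeds and EXPA7 and EXPA18 for roots, none of which was called, as well as FMA and PYK10, which are described below. No marker of phloem, xylem, pollen or general epidermis was annotated.

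Of the 17837 probe sets, 2024 were called (11.3%), 983 higher in the expanding leaf (5.51%) and 1041 lower (5.84%). A change of at least 2-fold was reached by 1533 of them (8.59%), 715 higher (4.01%) and 818 lower (4.59%). Both arrays of one group lay above both of the other for 8834 probe sets (49.5%), and 461 calls were stable (2.58%), 176 of them higher (0.987%) and 285 lower (1.6%). The number of calls rested on the expanding leaf arrays, since 918 and 705 probe sets were called without replicate 1 or replicate 2 of that group. It rose to 3392 without replicate 2 of the younger apex and was 1916 without replicate 1. Without either mature leaf array, which enters through the shared estimate of spread, it was 1243 and 1245, and in a fit of the 4 arrays compared it was 735.

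**Figure D1:**
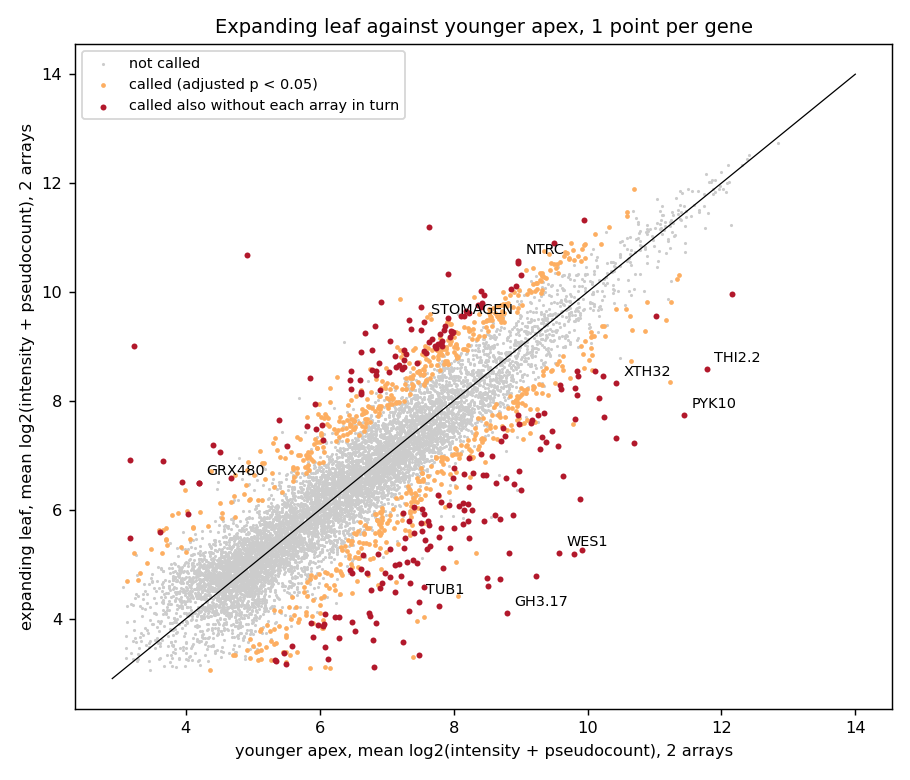
Mean level in the expanding leaf (vertical) against mean level in the younger apex (horizontal) for 9906 genes with 1 probe set each, on the log2(intensity + pseudocount) scale with 2 arrays per group. The line marks equal levels, and colours separate genes that were not called, called, and called also without each array. GH3.17 and WES1 lie furthest below the line among the labelled genes.

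Genes that bear a symbol are described from here, 1310 of the 9906 genes tested, with 1 probe set each. Of all 9906 genes, 978 were called (9.87%), 487 higher (4.92%) and 491 lower (4.96%). Of the 1310, 180 were called (13.7%), 72 higher (5.5%) and 108 lower (8.24%), and their median difference was -0.09, against 0.008 over all genes. Of the symbol-bearing genes 47 were stable (3.59%), 12 higher (0.916%) and 35 lower (2.67%). The shares of 5.5% and 8.24% are the background for the counts of gene groups below.

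Among genes with a symbol, the deepest falls were in enzymes of auxin conjugation. Several enzymes of the GH3 family join amino acids to the auxin indole-3-acetic acid, which removes it from the active pool. Some GH3 genes, but not all, are themselves induced by auxin. The response of the genes below to auxin was not tested. GH3.17 (AT1G28130) read 8.78 and 8.81 in the younger apex and 3.42 and 4.78 in the expanding leaf. It was 25.9-fold lower on this scale, a log2 difference of -4.69 ± 0.46 (SE, adjusted p = 0.00049). The 2 apex arrays nearly coincided, while the leaf arrays spread over more than 1 log2 unit near the floor, and the difference was -5.38 without leaf replicate 2 and -4.01 without leaf replicate 1. WES1 (AT4G27260), also known as GH3.5, read 9.56 and 9.58 in the apex and 5.45 and 4.95 in the leaf. Its fall of 20.7-fold (-4.37 ± 0.26, adjusted p = 4.5e-05) left a level still well above the floor. GH3.3 (AT2G23170) read 7.58 and 7.40 in the apex and 3.55 and 3.12 in the leaf, which puts the leaf at the floor (17.8-fold, -4.15 ± 0.26, adjusted p = 6.2e-05). These 3 values depend on the pseudocount: with one taken at percentile 5 or percentile 40 of the intensities they were -5.56 and -3.61 for GH3.17, -4.65 and -3.78 for WES1 and -5.71 and -2.73 for GH3.3. All 3 calls were stable.

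No other member of the auxin response list was called, which makes 3 of 8 members tested out of 12. The fourth GH3 gene, GH3.9, differed by -0.34 (adjusted p = 0.47), and the Aux/IAA repressors IAA30, IAA29, IAA18 and IAA33 differed by -0.68, -0.64, 0.28 and 0.90 with no call. The list median of -0.66 therefore stands well above the values of the called genes. In the older apex GH3.3 read 7.75 and 7.79, close to the younger apex, and GH3.17 read 7.39 and 8.31. The comparison of leaf with older apex shares the leaf arrays with the one described here and gave -3.75 for GH3.17, -3.26 for WES1 and -4.44 for GH3.3.

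Genes of the ER body fell as a group. The ER body is an endoplasmic reticulum compartment of Brassicaceae seedlings and roots that stores β-glucosidases used against herbivores. The list was assembled after the values of several members had been seen, so its count only describes them: 6 of 7 members were tested and all 6 were lower, with a median difference of -2.83. PYK10 (AT3G09260), the main ER body β-glucosidase, read 11.38 and 11.52 in the younger apex and 7.50 and 7.98 in the expanding leaf (13.1-fold, -3.71 ± 0.27, adjusted p = 0.00012). It was still clearly above the floor in the leaf, and read 4.04 and 4.40 in the mature leaf. The jacalin-related lectins that join PYK10 in a complex after tissue damage fell too. JAL22 (AT2G39310) read 8.48 and 8.51 against 4.32 and 5.17 (13.5-fold, -3.75 ± 0.30). JAL34 (AT3G16460) read 9.78 and 9.48 against 6.81 and 6.43 (8.05-fold, -3.01 ± 0.27), and JAL33 (AT3G16450) read 9.33 and 8.68 against 6.36 and 6.37 (6.25-fold, -2.64 ± 0.31). No leaf array of these lectins reached the lowest apex array, which a stable call requires.

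The genes that build the ER body changed in the same direction by less. NAI2 (AT3G15950), a structural protein of the compartment, read 7.25 and 7.80 in the apex and 5.67 and 5.57 in the leaf (-1.90 ± 0.27, adjusted p = 0.0028). NAI1 (AT2G22770), the bHLH factor that controls ER body genes, read 5.75 and 5.83 against 4.11 and 4.01 (-1.73 ± 0.35, adjusted p = 0.012). The call of NAI1 was lost without expanding leaf replicate 2 (adjusted p = 0.067), while the other 5 were stable. The JAL22 difference was -3.01 and that of NAI1 -1.04 with the pseudocount at percentile 40. PYK10 also stands among the root markers. The other tested root markers read 3.91 to 5.77 in the younger apex, where an intensity of 0 would lie at 2.95. Their differences were 1.25 for EXPA7 and -0.92 for EXPA18, with no call.

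**Figure D2:**
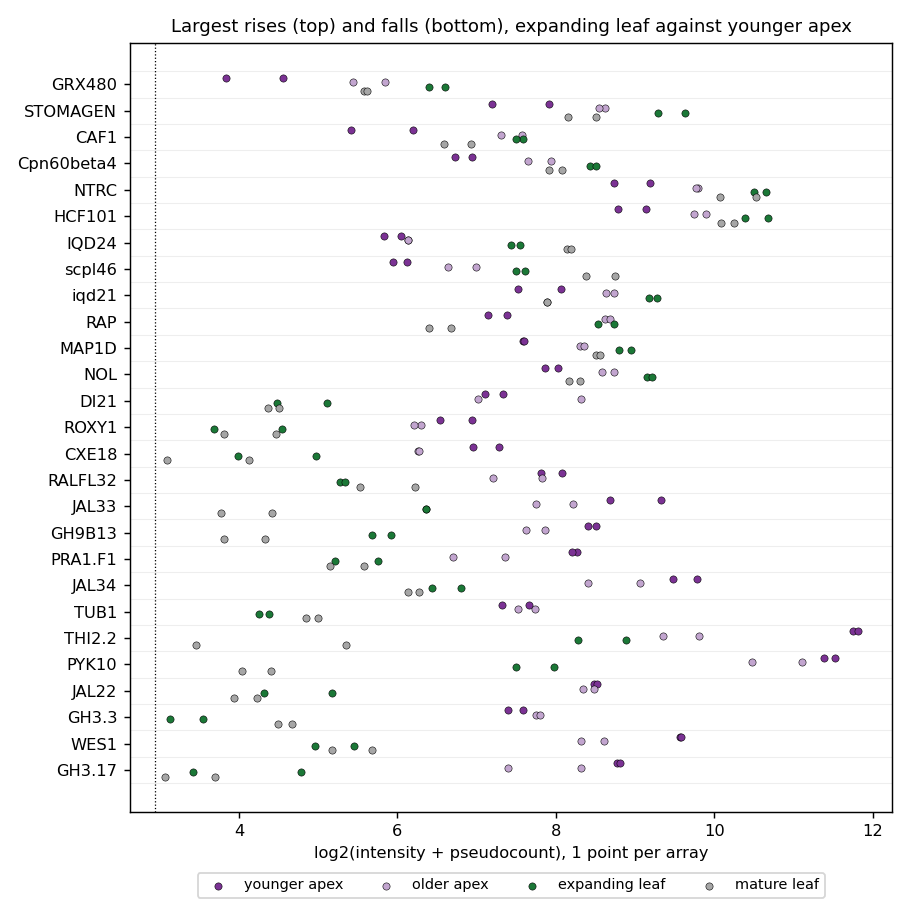
Level on each of the 8 arrays, as log2(intensity + pseudocount), for the 12 stable rises and the 15 largest stable falls among genes with a symbol. Colours give the 4 groups and the dotted line marks an intensity of 0. For every gene shown the expanding leaf points lie wholly to one side of the younger apex points, as the term stable requires.

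Tubulin genes were lower in the leaf in part. Tubulins form the microtubules of the spindle, of the plate that divides cells and of the cortical array that orients cellulose. Of the 8 tubulin and actin genes tested 4 fell, all 8 differences were below 0 and the median was -0.93. TUB1 (AT1G75780), a β-tubulin, read 7.31 and 7.65 in the younger apex and 4.38 and 4.25 in the leaf (9-fold, -3.17 ± 0.25, adjusted p = 0.00017), with low leaf arrays that nearly coincided. The β-tubulins TUB5 and TUB6 fell by 1.61 and 1.43 and the α-tubulin TUA1 by 1.18. TUB1 alone was stable, since TUB5 and TUB6 were lost without leaf replicate 2 (adjusted p = 0.061 and 0.052) and TUA1 without leaf replicate 1 (0.076). TUB7, TUB9, TUA6 and ACT11 differed by -0.67 to -0.46 with no call. The TUB1 difference was -2.32 with the pseudocount at percentile 40. Of 17 class XI myosins and actin-linking proteins tested, a list added after the annotation had been read, 10 lay above 0 and the median was 0.26. The single call among them was WLIM2b, which was lower (-0.87, adjusted p = 0.033) and passed in 3 of the 8 left-out fits.

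Among wall-loosening proteins, falls were found in some members only. Expansins loosen the wall without cutting it. Of 15 tested out of 18, 3 fell and none rose. EXPB3 (AT4G28250) read 10.22 and 10.24 in the younger apex and 8.74 and 8.17 in the leaf (3.41-fold, -1.77 ± 0.24, adjusted p = 0.0022), a stable fall from a high level. EXPA20 read 6.38 and 6.08 against 4.59 and 4.45 (-1.71 ± 0.38, adjusted p = 0.018). EXPA8 read 10.89 and 10.40 against 9.72 and 7.74, and its difference of -1.92 became -2.91 without leaf replicate 1 and -0.93 without leaf replicate 2. Both calls were lost without 1 or more arrays, at adjusted p up to 0.095 for EXPA20 and 0.12 for EXPA8. Without replicate 1 of the younger apex, 1 expansin was called higher. The 12 members that were not called spread from -1.81 for EXLA1 to 1.25 for EXPA7.

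Enzymes that cut or rejoin wall glucans showed the same mixture. Of 18 xyloglucan enzymes and family 9 endoglucanases tested out of 25, 4 fell and none rose. The endoglucanase GH9B13 (AT4G02290) read 8.41 and 8.50 in the apex and 5.92 and 5.68 in the leaf (6.3-fold, -2.66 ± 0.26, adjusted p = 0.00049). GH9B8 (AT2G32990), of the same family, read 7.84 and 8.44 against 6.02 and 6.24 (-2.01 ± 0.26). XTH32 (AT2G36870), a xyloglucan endotransglucosylase/hydrolase, read 10.25 and 10.61 against 8.44 and 8.22 (4.28-fold, -2.10 ± 0.22, adjusted p = 0.00068). In the mature leaf the endoglucanases were lower still, at 4.33 and 3.81 for GH9B13, whereas XTH32 read 9.60 and 9.53 there. These 3 falls were stable. GH9B7 fell by 0.79 (adjusted p = 0.033), passed in 1 of the 8 left-out fits and was not called at equal array medians. Without apex replicate 1, 1 member of the list was called higher. Of the xyloglucan members XTH16, XTH18, XTH19, XTH20 and XTH33, differences of -0.75 to -0.44 gave no call.

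Growth peptides of the RALF family, which signal through receptor kinases at the cell wall, were lower in 3 of 7 members tested out of 11, with all 7 differences below 0 and a median of -0.73. RALFL32 (AT4G14010) read 8.08 and 7.81 in the younger apex and 5.27 and 5.34 in the leaf (6.25-fold, -2.64 ± 0.30, adjusted p = 0.0011) and was stable. RALFL34 (AT5G67070) read 11.36 and 10.36 against 9.31 and 9.24 (-1.58 ± 0.31), and RALFL22 read 8.45 and 7.63 against 6.05 and 6.78 (-1.63 ± 0.35). RALFL34 was lost without either leaf array (adjusted p up to 0.075) and RALFL22 without apex replicate 1 or leaf replicate 1 (up to 0.12). The trichome birefringence-like proteins, a family whose studied members acetylate wall polymers, gave 4 falls and 1 rise among 18 tested out of 22, from -1.73 for TBL45 to 1.14 for TBL26. None of these 5 was stable, and without leaf replicate 2 no member was called.

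Regulators of lateral organ growth had 2 falls among 9 members tested. NUB (AT1G13400) and JAG (AT1G68480) are related zinc-finger proteins that keep tissue of young lateral organs growing. NUB read 6.14 and 6.44 in the younger apex and 3.75 and 4.33 in the leaf (4.77-fold, -2.25 ± 0.33, adjusted p = 0.0034) and was stable. It read 6.43 and 6.24 in the older apex, like the younger one. JAG read 5.76 and 5.77 against 4.75 and 4.41 (-1.18 ± 0.30, adjusted p = 0.033), and its call was lost without each of the 8 arrays in turn, at adjusted p up to 0.16. AGO7, which acts in leaf polarity, differed by -1.40 (adjusted p = 0.065), and YAB3 and YAB5, which mark the lower leaf side, by 0.06 and 0.47 with no call. The NUB difference was -2.90 and -1.43 with the pseudocount at percentile 5 and percentile 40.

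Division genes gave few calls. Of 11 mitosis and cytokinesis genes none was called by limma, while 2 had an unadjusted p under 0.05, 10 differences lay below 0 and the median was -0.39. TOPII, the topoisomerase that untangles replicated DNA, read 7.94 and 8.67 in the younger apex and 6.63 and 7.70 in the leaf (-1.14, adjusted p = 0.080). Its groups did not overlap, but each spread widely between its 2 arrays. Without apex replicate 1, and without leaf replicate 2, 1 gene of the list was lower. The Aurora kinases AUR1, AUR2 and AUR3, which act on mitotic chromosomes, differed by -0.38, -0.47 and -0.29. The comparison of leaf with older apex, which shares the leaf arrays, called 6 of these 11 genes lower with a median of -0.94, where 5.65% of genes with a symbol were called lower. Among core histones 2 of 5 tested were lower, both H2B genes: HTB1 by -0.89 (adjusted p = 0.021) and HTB4 by -1.07 (adjusted p = 0.022). Neither was called without either of the leaf arrays.

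**Figure D3:**
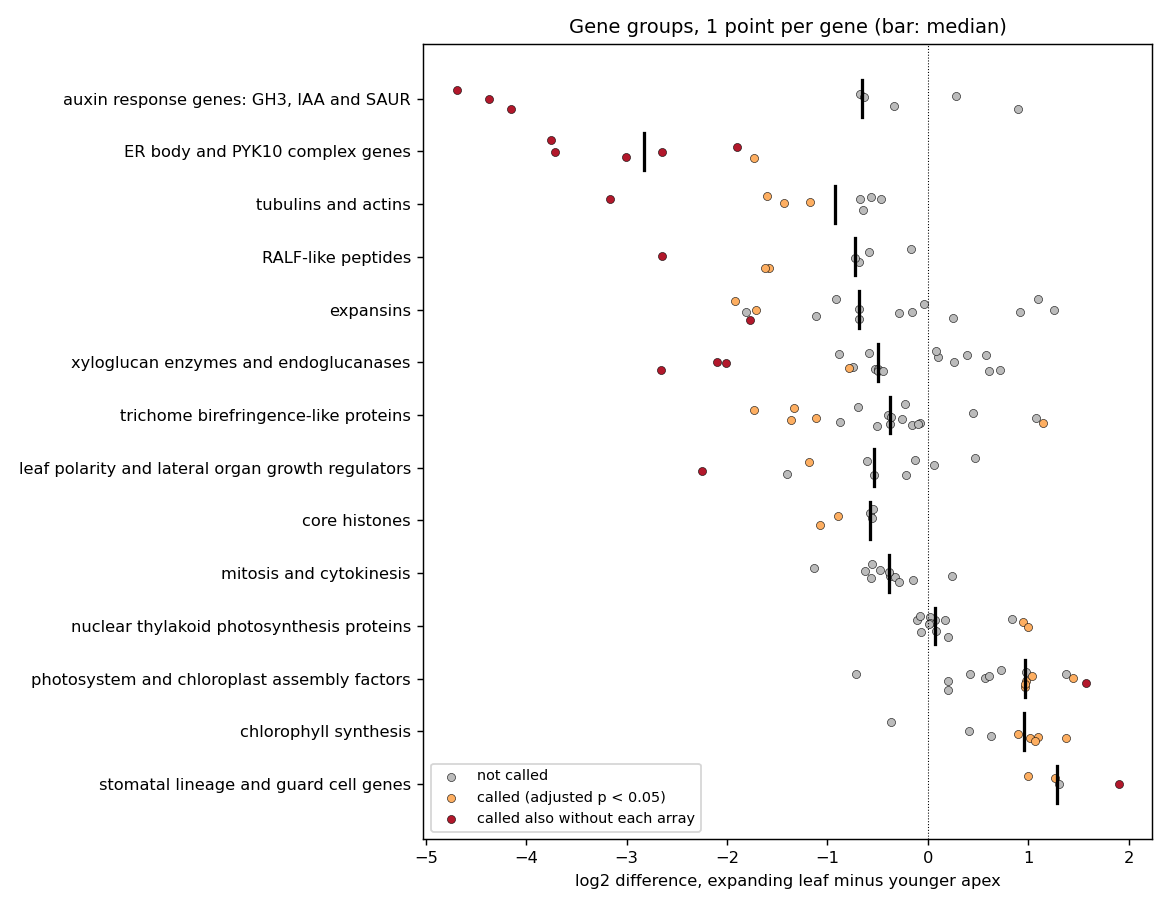
Log2 difference between expanding leaf and younger apex (horizontal) for each tested gene of 14 gene groups (vertical), with the group median as a bar and colour by call. All 8 tubulin and actin genes lie below 0, and 7 of 8 chlorophyll synthesis genes lie above 0.

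The 12 stable rises among genes with a symbol ran from 1.24 to 2.31, while the stable falls ran from -1.40 to -4.69. The rises in genes for chloroplast proteins, a grouping made after the values were seen, are given first. CAF1 (AT2G20020), a splicing factor for introns of plastid genes, read 5.42 and 6.19 in the younger apex and 7.58 and 7.49 in the leaf (3.33-fold, 1.73 ± 0.29, adjusted p = 0.0055). Cpn60beta4 (AT1G26230), a subunit of the chloroplast chaperonin that folds proteins, read 6.73 and 6.95 against 8.42 and 8.51 (3.1-fold, 1.63 ± 0.21, adjusted p = 0.0021). NTRC (AT2G41680), a chloroplast thioredoxin reductase with a thioredoxin domain of its own, read 8.73 and 9.19 against 10.49 and 10.65 (3.05-fold, 1.61 ± 0.23). As the term stable requires, the groups did not overlap for any of the 12 rises. HCF101 (AT3G24430), which helps to insert iron-sulphur clusters into photosystem I, read 8.78 and 9.14 against 10.39 and 10.68 (2.97-fold, 1.57 ± 0.21, adjusted p = 0.0022). RAP (AT2G31890), needed for maturation of the plastid 16S ribosomal RNA, read 7.38 and 7.15 against 8.53 and 8.73 (2.57-fold, 1.36 ± 0.21). NOL (AT5G04900), a chlorophyll b reductase, read 7.86 and 8.03 against 9.15 and 9.21 (2.36-fold, 1.24 ± 0.19). It belongs to the list of chlorophyll breakdown and senescence genes. Of the 6 tested there 2 rose and 0 fell, with a median of 0.80 and a range of -1.39 to 1.24, and NOL alone was stable. MAP1D (AT4G37040), an organellar methionine aminopeptidase, rose by 1.28 ± 0.19 (2.43-fold).

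The older apex was already close to the leaf for some of these. CAF1 read 7.57 and 7.31 there and RAP 8.62 and 8.69, so that the leaf differed from the older apex by 0.10 and -0.02. The older apex, compared with the younger apex arrays that both comparisons share, differed by 1.64 for CAF1 (adjusted p = 0.019) and 1.39 for RAP (adjusted p = 0.012). HCF101, NTRC and Cpn60beta4 lay in between, at 9.74 to 9.89, 9.77 to 9.79 and 7.65 to 7.94. RAP read 6.40 and 6.67 in the mature leaf, below the younger apex.

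Wider lists of chloroplast genes were higher in part. Of the 8 chlorophyll synthesis genes tested out of 9, 5 rose and none fell, and the median was 0.96. CHLI2 (AT5G45930), a subunit of the magnesium chelatase, read 7.82 and 7.76 in the younger apex and 8.94 and 9.39 in the leaf (2.59-fold, 1.38 ± 0.23, adjusted p = 0.0055). Earlier steps of the path moved by about 1 log2 unit, with GSA1 at 1.09, HEME1 at 1.07, HEME2 at 1.01 and HEMB1 at 0.90. PORB and CHLM, which act late in the path, already read 10.37 to 11.34 in the younger apex and differed by 0.63 and 0.41 with no call. Of these 5 rises none was stable. Without leaf replicate 2 no member was called and without leaf replicate 1 it was 2, and at equal array medians it was 3.

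A list of photosystem assembly factors and other chloroplast proteins was added after the annotation had been read. Of its 15 members tested, 6 rose and none fell, with a median of 0.96. LPA1 (AT1G02910), which assists photosystem II assembly, read 7.40 and 7.74 against 8.74 and 9.28 (2.72-fold, 1.44 ± 0.24, adjusted p = 0.0056). PAM68, TROL, CcdA and LIL3:1 rose by 1.04, 0.98, 0.97 and 0.96, and HCF101 was the stable member. Without leaf replicate 2 the list had 1 call and without leaf replicate 1 it had 4, and without apex replicate 2 it had 8 higher and 1 lower. Nuclear genes for plastid translation, folding, import and division were gathered after their values had been seen, so their count of 18 higher and 0 lower among 25 tested out of 26 describes that choice and supports nothing. Among them were the peptide deformylases PDF1A and PDF1B at 1.11 and 1.24, the translation initiation factor FUG1 at 0.88 and the division proteins FTSZ2-1 and FTSZ2-2 at 0.75 and 0.77. RH39, an RNA helicase for plastid ribosomal RNA, read 5.07 and 7.44 in the younger apex and 8.40 and 8.46 in the leaf, and its difference of 2.18 was 0.99 without apex replicate 1 and 3.36 without apex replicate 2. Without leaf replicate 1 and replicate 2 the gathered genes had 8 and 4 calls, and apart from Cpn60beta4, CAF1, RAP and MAP1D none was stable.

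Among 13 nuclear genes tested for proteins of the thylakoid itself, 2 rose and none fell, and the median was 0.07. The share called was 15.4%, against 13.7% of all genes with a symbol. CaS, a thylakoid calcium-sensing protein, differed by 0.95 (adjusted p = 0.015) and NdhL, a subunit of the chloroplast NDH complex, by 1.00 (adjusted p = 0.034). The antenna genes LHCB4.1, LHCB4.2 and LHCB4.3 and the photosystem genes PSBW, PSBY, PSAE-1 and PSAN differed by -0.11 to 0.17 with no call. The list followed the younger apex arrays: its median was 0.47 with 4 genes higher without apex replicate 1, and -0.24 with 1 higher without apex replicate 2, and without either leaf array no member was called. None of 4 Calvin cycle genes was called by limma or had an unadjusted p under 0.05 (median 0.20).

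Genes encoded in the plastid could not be compared with precision, because the 2 younger apex arrays disagreed. Of 46 such photosynthesis genes 43 were tested, and 0 were called by limma or had an unadjusted p under 0.05. Their median level was 8.15 on apex replicate 1 and 5.04 on replicate 2, against 6.14 and 5.40 in the leaf, so that both leaf arrays lay between the apex arrays. The median difference was -0.63. It became 0.80 with 1 gene higher without apex replicate 1, and -1.90 with 26 genes lower without apex replicate 2. psbJ, a small subunit of photosystem II, read 9.91 and 5.15 in the apex and 5.52 and 4.71 in the leaf. Of 21 plastid genes for transcription and translation 17 were tested, and 0 were called by limma or had an unadjusted p under 0.05. Their median level was 6.95 and 4.52 on the apex arrays and 5.13 and 4.48 on the leaf arrays, so that here leaf replicate 2 lay just below both apex arrays. rps4, a ribosomal protein, read 12.09 and 5.81 in the apex against 6.61 and 6.12. The part of the 25S rRNA signal, of the other control differences or of RNA preparation in the height of apex replicate 1 was not tested.

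**Figure D4:**
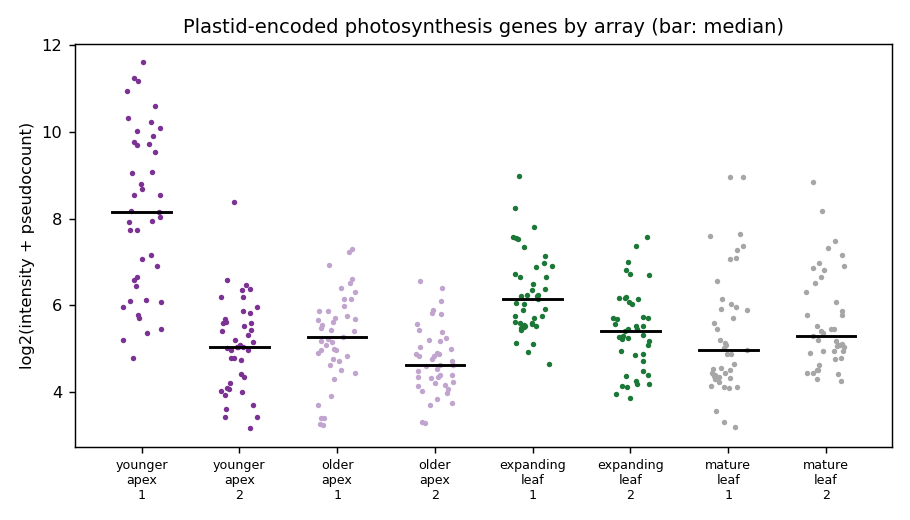
Level of 43 plastid-encoded photosynthesis genes (points) on each of the 8 arrays, as log2(intensity + pseudocount), with the median of each array as a bar. The median of replicate 1 of the younger apex is 8.15, above every other array, and that of replicate 2 is 5.04.

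Of 4 stomatal genes 3 were higher in the leaf. Stomata arise through divisions that SPCH starts, that MUTE ends and after which FMA sets guard cell identity; all 3 are bHLH factors. STOMAGEN is a peptide secreted by the mesophyll that promotes stomata. STOMAGEN (AT4G12970) read 7.91 and 7.19 in the younger apex and 9.28 and 9.63 in the leaf (3.75-fold, 1.91 ± 0.27, adjusted p = 0.0029) and was stable. SPCH (AT5G53210) read 6.06 and 6.64 against 7.54 and 7.69 (1.27 ± 0.29, adjusted p = 0.020), and FMA (AT3G24140) 6.16 and 5.48 against 6.67 and 6.98 (1.00 ± 0.28, adjusted p = 0.047). MUTE read 3.23 and 4.73 against 5.32 and 5.25, and its difference of 1.30 was not called (adjusted p = 0.12). All 4 members were thus above 0, with 3 called. SPCH was lost without apex replicate 1 or either leaf array (adjusted p up to 0.11), and FMA passed in 1 of the 8 left-out fits. SPCH in the older apex, at 7.83 and 7.76, was as high as in the leaf, while FMA there, at 5.54 and 5.50, was not.

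Other developmental regulators were called one by one. RR16 (AT2G40670), a cytokinin response regulator, read 5.93 and 4.73 in the younger apex and 7.48 and 7.16 in the leaf (3.97-fold, 1.99 ± 0.37, adjusted p = 0.0089). Its difference was 2.59 without apex replicate 1 and 1.39 without apex replicate 2, and the call was lost without leaf replicate 1 (adjusted p = 0.061). NGA3, a margin regulator of the NGATHA family, differed by 1.53 (adjusted p = 0.042) and passed in 1 left-out fit, while the other 3 tested NGATHA genes were not called. Of the trichome genes, SIM, an inhibitor of cell cycle kinases that brings on endoreduplication, read 6.71 and 6.80 against 4.95 and 5.23 (-1.67 ± 0.30, adjusted p = 0.0079). GIS, a zinc-finger gene of trichome initiation, read 4.21 and 4.88 against 5.69 and 6.0 (1.30 ± 0.32, adjusted p = 0.029). Neither was stable: SIM was lost without leaf replicate 1 (adjusted p = 0.053) and GIS without 5 of the 8 arrays (up to 0.16). IQD24 (AT5G07240) and iqd21 (AT3G49260), calmodulin-binding proteins, rose by 1.55 ± 0.21 and 1.43 ± 0.22 and were stable. Of 13 family members tested, 1 fell and the median was -0.44.

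Redox proteins of the glutaredoxin type moved in opposite directions. GRX480 (AT1G28480), a glutaredoxin that binds TGA factors, had the largest stable rise among genes with a symbol. It read 3.83 and 4.56 in the younger apex and 6.40 and 6.60 in the leaf (4.94-fold, 2.31 ± 0.32, adjusted p = 0.0026), and 2.88 and 1.52 were obtained with the pseudocount at percentile 5 and percentile 40. ROXY1 (AT3G02000), a glutaredoxin of the same class known from petal initiation, read 6.94 and 6.53 against 3.68 and 4.55 (6.16-fold, -2.62 ± 0.37, adjusted p = 0.0028), and -3.29 and -1.75 with those pseudocounts. In a list gathered after these values were seen, NTRC was the third call among 12 genes and the other 9 were not called.

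Further large falls were in single genes, several of them known from defence or stress, which stand for no list. Of 6 defence genes tested none was called by limma or had an unadjusted p under 0.05 (median 0.13), and of 6 WRKY factors none was called and 1 had an unadjusted p under 0.05 (median 0.22). The defence list was matched by name and did not take in THI2.2 or LCR69, so its count does not cover them. THI2.2 (AT5G36910), an antimicrobial thionin, read 11.75 and 11.81 in the younger apex and 8.88 and 8.27 in the leaf (9.2-fold, -3.20 ± 0.49, adjusted p = 0.0039). It read 9.81 and 9.36 in the older apex and 5.35 and 3.45 in the mature leaf, so that it was highest on the younger apex arrays. LCR69 (AT2G02100), a defensin-like protein, had means of 12.2 in the younger apex and 9.95 in the leaf (-2.21 ± 0.31, adjusted p = 0.0028). JRG21 (AT3G55970), a jasmonate-regulated gene, read 6.68 and 7.13 against 4.79 and 4.36 (5.02-fold, -2.33 ± 0.34). LEA4-5 (AT5G06760), a late embryogenesis abundant protein, read 5.63 and 5.35 against 3.17 and 3.17, with the leaf at the floor, and its difference of -2.33 ± 0.40 was -4.00 and -1.17 with the pseudocount at percentile 5 and percentile 40. Both were as low in the older apex, at 4.25 and 3.92 for JRG21 and 3.07 and 3.11 for LEA4-5. The AP2 factor gene tny (AT5G25810) read 8.0 and 7.19 against 5.76 and 4.80 (-2.32 ± 0.38, adjusted p = 0.0051). DI21 (AT4G15910), a drought-induced gene, read 7.33 and 7.10 against 4.48 and 5.10 (-2.42 ± 0.40).

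Late embryogenesis and cold genes as a list gave 3 falls among 9 tested out of 12, LEA4-5 together with RD2 at -1.02 and COR47 at -0.90. COR15A and COR15B, chloroplast proteins induced by cold, differed by 2.16 and 2.37 with adjusted p of 0.23 and 0.097. DFR (AT5G42800), dihydroflavonol reductase of anthocyanin synthesis, read 7.62 and 8.44 in the younger apex and 5.43 and 4.66 in the leaf (7.93-fold, -2.99 ± 0.58, adjusted p = 0.011). It was lost without leaf replicate 2 (adjusted p = 0.081) and was -2.40 with the pseudocount at percentile 40. Of the 6 anthocyanin list members tested, 1 other was lower, AT4G14090, at -3.49, which was -4.33 and -2.64 without leaf replicate 1 and replicate 2 and was lost without replicate 2 (adjusted p = 0.12). UGT78D2 and UGT78D1, flavonoid glycosyltransferases, differed by 0.22 and 0.49 with no call.

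Of 18 sugar transport and sucrose synthesis genes tested, 1 fell and 1 rose. SWEET17 (AT4G15920), a fructose transporter of the vacuole, read 7.62 and 7.64 in the younger apex and 6.06 and 5.36 in the leaf (3.77-fold, -1.91 ± 0.29, adjusted p = 0.0037). It was the stable call of the list. ATSPS4F, a sucrose phosphate synthase, read 5.72 and 4.56 against 7.09 and 6.63, and its difference of 1.73 (adjusted p = 0.043) was 2.31 without apex replicate 1 and 1.14 without apex replicate 2, with the call lost without 5 of the 8 arrays. PRA1.F1 (AT1G17700), a Rab acceptor of the secretory path, read 8.26 and 8.20 against 5.75 and 5.21 (6.71-fold, -2.75 ± 0.30, adjusted p = 0.0009). The related PRA1.B4 and PRA8 fell by 1.73 and 1.29 (adjusted p = 0.042 and 0.013), and neither call was stable. CXE18 (AT5G23530), a carboxylesterase, read 7.28 and 6.96 against 3.99 and 4.97 (6.21-fold, -2.64 ± 0.42), and -1.89 with the pseudocount at percentile 40. TET3 (AT3G45600), a tetraspanin, read 8.31 and 7.84 against 6.72 and 5.40, and its difference of -2.01 was -2.67 without leaf replicate 1 and -1.35 without leaf replicate 2.

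The serine carboxypeptidase-like family, whose members cut or transfer acyl groups, was split, with 2 rises and 6 falls among 23 tested out of 29. SCPL45 (AT1G28110) read 8.79 and 8.79 in the younger apex and 6.29 and 6.88 in the leaf (4.61-fold, -2.21 ± 0.25, adjusted p = 0.001). scpl46 (AT2G33530) read 6.12 and 5.95 against 7.61 and 7.49 (2.86-fold, 1.52 ± 0.23, adjusted p = 0.004), and was higher again in the mature leaf at 8.38 and 8.74. These 2 were the stable ones. Without leaf replicate 1 the family had 1 rise and 1 fall, and without leaf replicate 2 it had 1 and 2.

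Changes of similar or larger size were found in genes known here by locus only. AT5G55450 read 3.29 and 3.17 in the younger apex, at the floor, and 8.06 and 9.97 in the leaf (5.79 ± 0.47, adjusted p = 0.0002). Its difference was 6.74 without leaf replicate 1 and 4.83 without leaf replicate 2. AT3G16670 read 4.98 and 4.84 against 10.58 and 10.77 (5.76 ± 0.27, adjusted p = 1.2e-05), with leaf arrays that nearly coincided. On the other side AT3G44970 read 9.24 and 10.58 against 5.47 and 5.04 (-4.66 ± 0.55), and was -5.32 without apex replicate 1 and -3.99 without apex replicate 2. AT4G22490 read 9.33 and 10.27 against 5.57 and 4.79 (-4.62 ± 0.39, adjusted p = 0.00023). With the pseudocount at percentile 5 and percentile 40 the differences of the first 2 were 7.53 and 4.21, and 6.11 and 5.04, and those of AT4G22490 were -4.91 and -4.01.

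For most of the stable genes with a symbol the older apex lay between the 2 stages, by its mean in 11 of the 12 rises and in 27 of the 35 falls. These genes were chosen for a wide gap between the 2 stages, which favours a mean that falls inside it. The share over all genes was not computed, so the counts only describe these genes. The steps on either side share arrays with the comparison described here. Leaf against older apex called 7.48% of probe sets and older against younger apex 3.54%. Of genes with a symbol, 1.68% were higher in the older than in the younger apex, and 2.98% were higher and 5.65% lower in the leaf than in the older apex. In the gathered plastid translation and folding genes, 9 of 25 were higher in the older than in the younger apex. In the leaf against the older apex, 1 was higher and 1 was lower. The list was gathered after its values against the same younger apex arrays had been seen, so these counts only describe that choice. Of the 6 ER body genes none was called between the apices, where the median difference of older minus younger was -0.56 and the widest were -1.02 for JAL33 (adjusted p = 0.105) and -0.90 for JAL34 (adjusted p = 0.101), and 5 were lower in the leaf than in the older apex.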

How the data were processed

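Members and gene lists were chosen with earlier results of these data known. Lists were matched by symbol, synonym or locus. Some were added after the annotation was read, and 3 (ER body genes, glutaredoxins and thioredoxins, plastid translation and folding genes) after values were seen. The authors deposited linear intensity values per probe set for 8 ATH1 arrays; the submitters' processing notes name MAS5. Each deposited array had a median of 50, a step that no label states. The 2% trimmed means differed 1.50-fold, over the limit of 1.2, so arrays were scaled to their median of 132.5 (factors 0.757 to 1.14). The pseudocount, 7.71, is percentile 20 of the scaled table. Probe sets above percentile 30 of their array on at least 2 arrays were kept.

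Two-sided moderated tests came from limma 3.58.1 under R 4.3.3 (lmFit, then contrasts.fit, then eBayes, trend on), with all 8 arrays in 1 fit with 4 residual and 6.04 prior degrees of freedom. The procedure was tested on simulated data. Names came from the platform annotation (14016 probe sets, 503 with several genes left out) and RefSeq, where 13436 of 13513 matched, and 8730 probe sets stayed unnamed. A gene was represented by the probe set with the highest mean. Genes were named as the 15 largest stable rises (12 exist) and falls, up to 4 stable members of each list or else the one with the lowest p, and 2 locus-only genes each way; other list members are given with the counts they belong to. The jacalin lectins were taken off the jasmonate list after values were seen. Promoter sequences were not analysed here.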

Additional observations from a re-analysis of the deposited data

How the results depend on the processing

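The count of called probe sets was 2024, with 983 higher and 1041 lower. It was 735, with 308 and 427, in a fit of the 2 groups compared alone, and 966, with 481 and 485, when 1 probe set per named gene was tested. Leaving out 1 array at a time gave 705 to 3392 calls, 275 to 2007 higher and 430 to 1385 lower, lowest without expanding leaf replicate 2 and highest without younger apex replicate 2. Same-numbered arrays of the 2 groups deviated with a correlation of 0.090 over probe sets, and those of expanding leaf and older apex with 0.356; no label says that the numbers pair arrays. With the replicate number as a block, 2084 were called, of which 1916 were shared; the block changed no named call except that of WRKY53, which passed with it (1.03, adjusted p = 0.0497). The other scaling, pseudocount, filter and trend settings gave 1506 to 2222 calls, and equal array medians raised the share of higher calls from 48.6% to 55.6%. Of 58 named genes called, 41 passed under every alternative, and these are the stable ones, which the naming rule favours. Among all 180 called genes with a symbol, 47 were stable. The sign turned for 2 genes that were not called: POLA3 ranged from -0.63 to 0.038, positive without expanding leaf replicate 2, and rps4 from -5.72 to 0.56, positive without younger apex replicate 1. Signals near the floor limit the size, not the direction, of the largest falls. The causes of these shifts were not tested.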

Other observations

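Of the 63 gene lists with a tested member, 25 held no called gene and 6 further lists had no tested member. Among those with none called, all 10 autophagy genes tested lay slightly below 0 (median -0.37), and the 7 starch genes (median 0.11), 12 ubiquitin-specific proteases (-0.01) and 6 mitochondrion-encoded genes (0.18) had medians near that of all genes. In limma's test these 4 lists together held 1 gene with an unadjusted p under 0.05, a mitochondrion-encoded one. Of 28 UDP-glycosyltransferases tested UGT87A2 was higher (0.97), and of 15 cytochromes P450 CYP71B5 was lower (-1.48). Of 9 glucosinolate genes, GTR2, a transporter of intact glucosinolates, was higher (1.15, adjusted p = 0.034) beside the fall of PYK10.

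Among further stable falls with a symbol were SBT1.3, a subtilisin-like protease (-1.40, adjusted p = 0.0035), BRH1, a RING-finger protein repressed by brassinosteroid (-1.41, adjusted p = 0.0037), LHW, a bHLH factor of vascular development (-1.63, adjusted p = 0.0038), and ALC, a bHLH factor of fruit opening (-1.95, adjusted p = 0.0034).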
